A study of Mus musculus with 6 samples.

Results

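Short interspersed elements (SINEs) are short retrotransposons that fill the mouse genome, and their reads were measured here in cultured epidermal keratinocytes with and without the maintenance DNA methyltransferase Dnmt1. In the deposited table of 1067 repeat names, 33 names were SINEs by their spelling, namely names that begin with B1, B2, B3, B4, PB1, RSINE, MIR, FLAM, FAM or AmnSINE, or with ID followed by a digit or by _. They comprised 10 B1 names, 5 names of B1 ancestors (4 PB1 names and FAM), 3 B2 names, 2 B3 names, 2 B4 names, 2 composites (RSINE1 and ID_B1), 3 ID names, 4 MIR names and 2 AmnSINE names, and no FLAM name was in the table. A further 3 SINE names (ID, MamSINE1 and LFSINE_Vert) begin otherwise and were not counted as members.

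Keratinocytes were isolated from the epidermis of female mice at P3, on a mixed C57BL/6J and 129SV background, and RNA was extracted after 5 days in culture according to the labels, whereas a legend of the study gives 72 h. There were 3 libraries of Dnmt1Δ/Δep keratinocytes, which are K5-Cre+ Dnmt1 f/f and titled ko, and 3 control libraries, titled wt. The labels do not give the Dnmt1 alleles of each control library, and controls in the study are Dnmt1 f/f or Dnmt1 f/+ without Cre. K5-Cre acts in cells of the keratin 5 lineage, that is in epidermis and hair follicles, so cells of other lineages in a culture keep Dnmt1. RNA was selected for poly(A) tails, and the replicate numbers 1, 2 and 3 of both groups were sequenced together on 1 lane each.

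SINEs carry no gene for a protein and move with the enzymes of LINE elements. RNA polymerase III can transcribe them from a promoter inside the element, made of an A box and a B box. DNA methylation and repressive histone marks have both been linked to the silencing of SINE copies. B1 and its ancestors PB1 and FAM descend from 7SL RNA, the RNA of the signal recognition particle. B2, ID and MIR elements descend from tRNA or tRNA-like genes. B3 is related to B2, and B4 elements join an ID-like part to a B1-like part. B2 RNA is known to rise under cell stress, and most SINE copies lie in introns and other parts of longer transcripts, where they are also copied by RNA polymerase II. A read that carries SINE sequence comes from either kind of transcript, and in these libraries the 2 kinds cannot be told apart.

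The ID family is related to a small RNA gene, which is shown because it holds the promoter boxes that SINEs carry (transcript of GENCODE M21 on GRCm38, 5′ to 3′). Bc1, the gene of the neuronal BC1 RNA and the source of mouse ID elements, lies at chr7:144914470-144914637 on the plus strand and is a single exon of 168 bases. Capitals mark matches on the plus strand to the A box, whose consensus is degenerate, or the B box (GTTCNNNNC).
Bc1: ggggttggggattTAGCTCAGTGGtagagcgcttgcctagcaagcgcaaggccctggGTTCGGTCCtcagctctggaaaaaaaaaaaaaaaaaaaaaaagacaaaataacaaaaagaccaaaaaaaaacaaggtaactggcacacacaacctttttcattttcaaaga
Bc1 matched the A box at bases 14 to 24 and the B box at bases 58 to 66. The matches to the A box and B box do not overlap. Such short patterns are common: on either strand, 13.2% of 32851 promoter windows trimmed to 168 bases held the A box pattern and 23.4% held the B box pattern.

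Library sizes decide how a SINE level reads in these cells, because the total of repeat reads differed between the groups. The libraries held 53433121 to 115526598 gene reads and 4940679 to 28673709 repeat reads each. Repeat reads were 8.87 to 12.2 per 100 gene reads in control and 22.7 to 28.1 in Dnmt1Δ/Δep libraries. Levels below are therefore given as RPM, reads scaled to 1000000 gene reads, after correction by trimmed mean of M-values (TMM) on genes, and folds with library sizes from repeats and from genes. Reads were assigned to names without a length or a copy number, so levels were compared between groups and not between names. Every SINE name passed the filter on low counts, and the fewest reads of a member in a library were 301, for FAM.

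The SINE names summed to 33224, 24508 and 26072 RPM in control replicates 1, 2 and 3 and 39748, 27997 and 31445 in Dnmt1Δ/Δep replicates 1, 2 and 3. The groups overlapped, since control replicate 1 lay above 2 of the 3 Dnmt1Δ/Δep libraries. Within each replicate number the Dnmt1Δ/Δep library was the higher, by 0.26, 0.19 and 0.27 on the log2 scale. Reads outside genes, counted in the gene table, moved in the same way: they were 9.97, 8.43 and 9.30 per 100 gene reads in control and 13.7, 9.31 and 13.3 in Dnmt1Δ/Δep libraries, and their part in the SINE reads was not tested. Per 100 reads outside genes, SINE reads were 32.6, 29.4 and 28.2 in control and 28.5, 30.0 and 24.2 in Dnmt1Δ/Δep libraries.

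Relative to LINE reads, which come from the autonomous elements whose enzymes move SINEs, the groups overlapped. There were 109, 114 and 115 SINE reads per 100 LINE reads in control and 108, 110 and 113 in Dnmt1Δ/Δep libraries, which gave 113 ± 3.18 and 111 ± 2.39 as mean ± SD (n = 3). The share of SINEs among all repeat reads was 26.6%, 28.0% and 28.4% in control and 13.9%, 12.3% and 12.9% in Dnmt1Δ/Δep libraries, without overlap. That lower share sat beside the higher total of repeat reads given above, as SINE reads per gene read were not lower in any pair. In the plot of SINE levels by library, replicate 1 was the highest of the control libraries for 31 names and of the Dnmt1Δ/Δep libraries for 32 names.

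**Figure D1:**
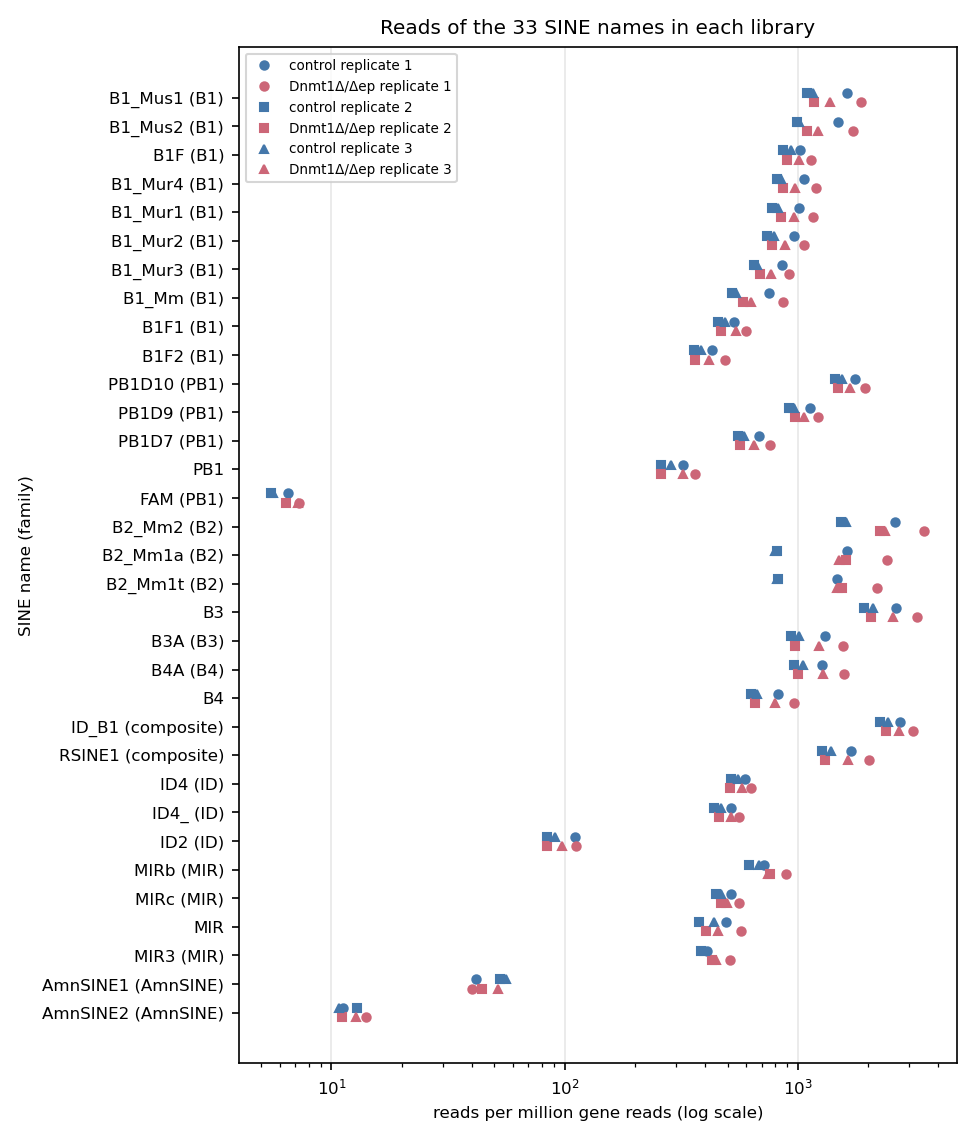
RPM (log axis) of each of the 33 SINE names in each of the 6 libraries, control in blue and Dnmt1Δ/Δep in red, with a marker shape for each replicate number. The B2 names stand out by the distance between red and blue markers of the same shape, for example 817 and 1604 for B2_Mm1a in replicates 2.

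Without a block for the replicate number, no SINE name passed an adjusted p of 0.05 with TMM factors under either library size. With library sizes from repeats, edgeR's quasi-likelihood test found 0 of 33 SINE names up and 0 down, where 9.91% of the 938 names tested were up and 0.746% down, and at an unadjusted p of 0.05 it found 0 up and 1 down (ID2). With library sizes from genes it found 0 up and 0 down, where 12% of 940 names were up and 0% down, and at the unadjusted p 2 up (B2_Mm1a and B2_Mm1t) and 0 down. DESeq2 also found 0 in each direction under each library size. Other factors on the repeat table gave other counts: 25 SINE names were down with upper-quartile factors, where 19.2% of all names were, and 33 with repeat totals and no TMM factor, where 73.8% of all names were. Calls at a log2 fold change of 1 were 0 in each direction too, against 8.21% of names up and 0% down with repeat library sizes and 10% up and 0% down with gene library sizes.

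The median log2 fold change of the 33 names was −0.21 with repeat library sizes and 0.15 with gene library sizes. The median over all names tested moved too, from −0.05 to 0.33. Relative to that median, the SINE median was different by −0.16 on the log2 scale with repeat library sizes and by −0.18 with gene library sizes. Under both, and also with LINE or B1 reads as the library size, the 3 B2 names lay above the median of all names and the other 30 SINE names below it.

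**Figure D2:**
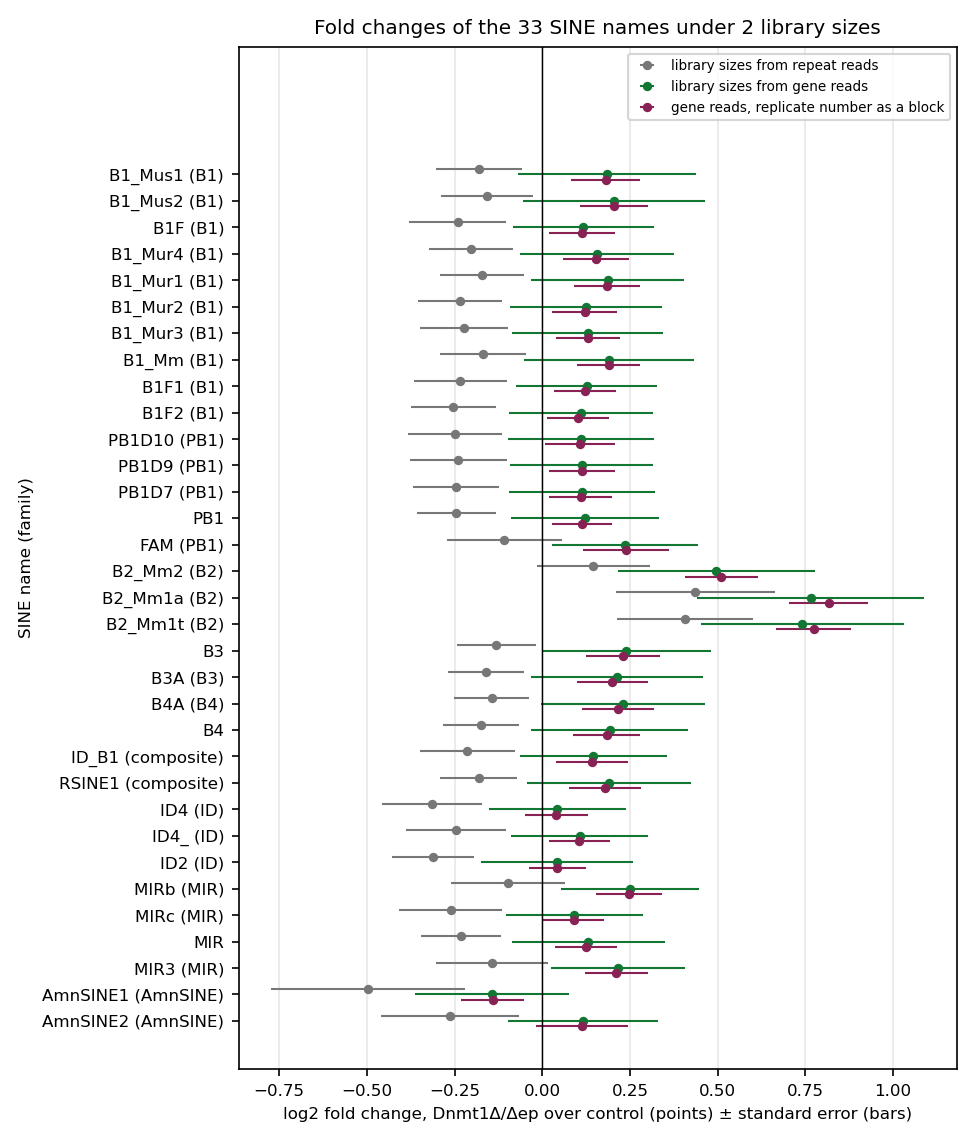
Log2 fold change of Dnmt1Δ/Δep over control (points) with its standard error (bars) for each of the 33 SINE names, from edgeR with library sizes from repeat reads (grey), from gene reads (green) and from gene reads with the replicate number as a block (purple). The grey points run from −0.50 for AmnSINE1 to 0.44 for B2_Mm1a, and the green points from −0.14 to 0.77.

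The numbers of the replicates pair the libraries, and a block for them changed calls. With the block and gene library sizes, the 3 B2 names were up and no SINE name was down, where 41.9% of all names were up and 1.06% down. With the block and repeat library sizes, 0 SINE names were up and 2 (ID2 and AmnSINE1) were down, where 16.8% of all names were up and 10.3% down. The share of SINE names up was thus below that of all names under both library sizes.

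B2 names had the highest log2 fold changes of the SINEs with repeat, gene, LINE and B1 library sizes. With repeat totals and no TMM factor all 3 were negative (−0.52 for B2_Mm1a), as was B2_Mm2 with upper-quartile factors (−0.10). B2_Mm1a, a young B2 subfamily, had 1627, 817 and 798 RPM in control replicates and 2406, 1604 and 1501 in Dnmt1Δ/Δep replicates. Replicates 2 and 3 differed most between the groups, whereas control replicate 1 lay above the Dnmt1Δ/Δep replicates 2 and 3, so the groups overlapped. Its log2 fold change was 0.77 ± 0.32 (standard error) with gene library sizes (adjusted p = 0.19) and 0.44 ± 0.23 with repeat library sizes (adjusted p = 0.29) by edgeR. With the block these were 0.82 ± 0.11 (adjusted p = 1.4e-04) and 0.46 ± 0.15 (adjusted p = 0.059).

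B2_Mm1t, the other young subfamily, had similar values. It had 1472, 825 and 817 RPM in control and 2193, 1544 and 1466 in Dnmt1Δ/Δep replicates, and control replicate 1 again lay within the range of the Dnmt1Δ/Δep group. With gene library sizes its log2 fold change was 0.74 ± 0.29 (adjusted p = 0.15, edgeR) and with the block 0.77 ± 0.11 (adjusted p = 1.4e-04). It was named after its values were seen, as a member past the threshold with the block.

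B2_Mm2, the B2 name with the most reads, had the smallest fold of the 3. It had 2600.1, 1532 and 1608 RPM in control and 3487, 2245 and 2364 in Dnmt1Δ/Δep replicates. With gene library sizes its log2 fold change was 0.50 ± 0.28 (adjusted p = 0.35, edgeR), 0.51 ± 0.10 with the block (adjusted p = 0.0022) and 0.15 ± 0.16 with repeat library sizes (adjusted p = 0.61). Leaving out control replicate 1 put all 3 B2 names past the threshold with gene library sizes and no block, with log2 fold changes of 1.19 for B2_Mm1a, 1.08 for B2_Mm1t and 0.78 for B2_Mm2, of which the first 2 were also past a log2 fold change of 1. Leaving out Dnmt1Δ/Δep replicate 1 gave the lowest values instead, which were 0.52 (adjusted p = 0.57), 0.54 (adjusted p = 0.48) and 0.27 (adjusted p = 0.85) in the same order. With the block, all 3 stayed past the threshold when any 1 replicate pair was left out, and B2_Mm1a then had log2 fold changes between 0.74 and 0.94.

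The ratio of B2 to B1 reads needs no library size, and the groups did not overlap in it. B2 names together had 58.5, 43.7 and 42.2 reads per 100 B1 reads in control and 73.4, 69.6 and 60.8 in Dnmt1Δ/Δep libraries. All Dnmt1Δ/Δep libraries lay above all control libraries, with control replicate 1 nearest to them. Both parts of this ratio differed without overlap when set against LINE reads. Per 100 LINE reads, B2 had 18.7, 14.8 and 14.2 reads in control and 22.1, 21.2 and 19.2 in Dnmt1Δ/Δep libraries. B1 was lower, with 32.0, 33.9 and 33.7 in control and 30.0, 30.5 and 31.6 in Dnmt1Δ/Δep libraries. Each of the 3 B2 names was without overlap on this scale, where 25.7% of all names were higher without overlap. With B1 reads as the library size, a comparison chosen after the data were seen, the log2 fold change was 0.61 ± 0.16 for B2_Mm1t (adjusted p = 0.038, edgeR), 0.64 ± 0.20 for B2_Mm1a (adjusted p = 0.072) and 0.35 ± 0.13 for B2_Mm2 (adjusted p = 0.14), where 13.9% of all names were up and 0.429% down. With the block as well, the adjusted p was 0.0030, 0.0034 and 0.016 in that order, where 27.3% of all names were up and 3% down. With LINE reads as the library size the adjusted p was 0.11 for B2_Mm1a, 0.066 for B2_Mm1t and 0.32 for B2_Mm2. With the block as well, B2_Mm1a (0.55 ± 0.10) and B2_Mm1t (0.51 ± 0.10) were up, both with an adjusted p of 0.0059, and B2_Mm2 (0.24 ± 0.09) had an adjusted p of 0.080, where 19.7% of all names were up and 5.78% down.

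**Figure D3:**
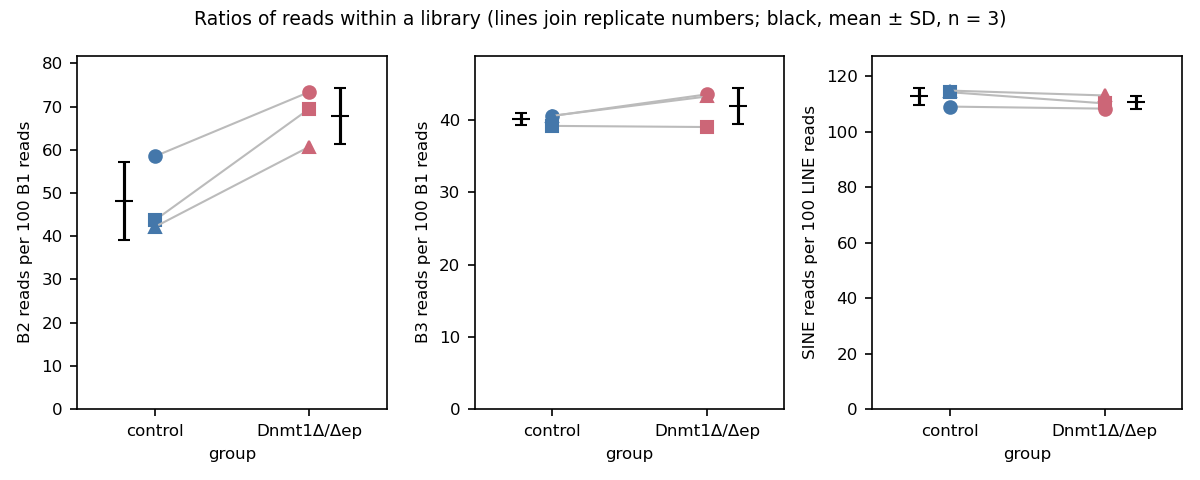
B2 reads per 100 B1 reads, B3 reads per 100 B1 reads and SINE reads per 100 LINE reads in each library, control in blue and Dnmt1Δ/Δep in red, with grey lines joining libraries of the same replicate number and black marks for the mean ± SD (n = 3). The B2 ratio separates the groups (42.2 to 58.5 against 60.8 to 73.4), and the other ratios overlap.

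B1 names, the most numerous family, had small positive log2 fold changes with gene library sizes (0.11 to 0.21 over the 10 names) and small negative ones with repeat library sizes (−0.25 to −0.16), and none passed the threshold with or without the block. B1_Mus1, the B1 name with the most reads and a subfamily found in mice, had 1627, 1099 and 1158 RPM in control and 1870.4, 1174 and 1372 in Dnmt1Δ/Δep replicates. Its log2 fold change with gene library sizes was 0.19 ± 0.25 (adjusted p = 0.72, edgeR) and with the block 0.18 ± 0.10 (adjusted p = 0.17), and the 3 pairs differed by 0.20, 0.10 and 0.24. B1F2, an old monomer-related B1 name, had 431, 360.0 and 383 RPM in control and 488, 361 and 417 in Dnmt1Δ/Δep replicates, and its log2 fold change with gene library sizes was 0.11 ± 0.21 (adjusted p = 0.81).

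The B1 ancestors were close to the B1 names. PB1D10, the member of this group with the most reads, had 1751, 1438 and 1542 RPM in control and 1941, 1489 and 1677 in Dnmt1Δ/Δep replicates, with a log2 fold change of 0.11 ± 0.21 with gene library sizes (adjusted p = 0.81, edgeR). The 4 PB1 names and FAM spanned 0.11 to 0.24. The 7SLRNA repeat name, which is not a member but the RNA from which they descend, had 21.0, 17.7 and 20.9 RPM in control and 22.9, 21.3 and 19.6 in Dnmt1Δ/Δep replicates.

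B3 names, relatives of B2, did not pass the threshold. B3 had 2646, 1917 and 2098 RPM in control and 3236, 2059 and 2571 in Dnmt1Δ/Δep replicates, and its log2 fold change was 0.24 ± 0.24 with gene library sizes (adjusted p = 0.62, edgeR) and −0.13 ± 0.11 with repeat library sizes (adjusted p = 0.51). B3A had 1309, 932 and 1007 in control and 1564, 969 and 1228 in Dnmt1Δ/Δep replicates, with a log2 fold change of 0.21 ± 0.25 with gene library sizes (adjusted p = 0.67). With the block, the adjusted p was 0.10 for B3 and 0.13 for B3A. Per 100 B1 reads, the B3 family had 40.6, 39.2 and 40.6 reads in control and 43.6, 39.1 and 43.3 in Dnmt1Δ/Δep libraries, so replicate 2 was level and replicates 1 and 3 were higher.

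The B4 names followed B3. B4A had 1274, 967 and 1050.1 RPM in control and 1579, 1004 and 1277 in Dnmt1Δ/Δep replicates, with a log2 fold change of 0.23 ± 0.23 with gene library sizes (adjusted p = 0.62, edgeR). B4 had 818, 627 and 669 in control and 963, 653 and 800.1 in Dnmt1Δ/Δep replicates, with a log2 fold change of 0.19 ± 0.22 (adjusted p = 0.67). In replicates 2 both names differed by only 0.06 on the log2 scale. The composites, which join ID-like and B1-like parts, were similar: ID_B1 had 2742, 2251 and 2427 in control and 3113, 2387 and 2706 in Dnmt1Δ/Δep replicates (log2 fold change 0.15 ± 0.21 with gene library sizes, adjusted p = 0.74), and RSINE1 had a log2 fold change of 0.19 ± 0.23 (adjusted p = 0.69).

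ID names had the smallest folds of the rodent families with gene library sizes. ID4 had 592, 516 and 556 RPM in control and 629.7, 511 and 575 in Dnmt1Δ/Δep replicates, with a log2 fold change of 0.04 ± 0.20 (adjusted p = 0.93, edgeR). ID2, named after its values were seen, had 111, 83.7 and 90.8 in control and 112, 84.3 and 97.6 in Dnmt1Δ/Δep replicates, so the pairs differed by 0.02, 0.01 and 0.10 on the log2 scale per gene read. With repeat library sizes its log2 fold change was −0.31 ± 0.12 (adjusted p = 0.15) and with the block −0.32 ± 0.09 (adjusted p = 0.037). With LINE reads as the library size and the block it was −0.22 ± 0.07 (adjusted p = 0.045, without the block 0.32), and with gene library sizes and the block it was 0.04 ± 0.08 (adjusted p = 0.69), so the direction of ID2 turned with the library size.

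The BC1_Mm repeat name, for the RNA from which mouse ID elements stem, is not a member. It had 1289, 298 and 319 RPM in control and 951, 357 and 305 in Dnmt1Δ/Δep replicates, so replicate 1 was far above the others in both groups and the groups overlapped. Its log2 fold change with gene library sizes was −0.24 ± 0.60 (adjusted p = 0.86, edgeR), and with the block −0.08 ± 0.12 (adjusted p = 0.63). Unique counts of the gene Bc1 were not analysed here.

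MIR and AmnSINE names, the oldest members, are shared with other mammals and are not known to move any more. MIRb, the MIR name with the most reads, had 718, 618 and 684 RPM in control and 894, 763 and 744 in Dnmt1Δ/Δep replicates. The groups did not overlap for MIRb, nor for MIR3 (385 to 408 in control and 427 to 512 in Dnmt1Δ/Δep libraries), and these were the 2 of 33 SINE names higher without overlap on this scale, where 23.9% of all names were. No SINE name was lower without overlap, where 0.959% of all names were. The log2 fold change of MIRb with gene library sizes was 0.25 ± 0.20 (adjusted p = 0.51, edgeR), and with the block 0.25 ± 0.09 (adjusted p = 0.054). MIRc had 517, 444 and 469.5 in control and 561, 467 and 496 in Dnmt1Δ/Δep replicates, with a log2 fold change of 0.09 ± 0.19 (adjusted p = 0.83).

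AmnSINE1, an ancient SINE with few reads, was the only member with a negative log2 fold change under both library sizes. It had 41.8, 52.7 and 55.9 RPM in control and 40.0, 44.2 and 51.8 in Dnmt1Δ/Δep replicates, and the groups overlapped. Its log2 fold change was −0.14 ± 0.22 with gene library sizes (adjusted p = 0.76, edgeR) and −0.50 ± 0.28 with repeat library sizes (adjusted p = 0.31). With the block these were −0.14 ± 0.09 (adjusted p = 0.22) and −0.50 ± 0.08 (adjusted p = 0.0043), and with the block and LINE reads as the library size it was −0.41 ± 0.08 (adjusted p = 0.0059, without the block 0.45). With repeat library sizes and no block, the log2 fold change of AmnSINE1 ran from −0.76 when control replicate 1 was left out (adjusted p = 0.059) to −0.28 when Dnmt1Δ/Δep replicate 1 was (adjusted p = 0.56).

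By family and replicate pair, B2 had the highest mean ratio under each denominator. Per gene read, the log2 ratios of Dnmt1Δ/Δep over control in replicates 1, 2 and 3 were 0.50, 0.76 and 0.73 for B2. They were 0.18, 0.09 and 0.20 for B1, 0.28, 0.09 and 0.29 for B3, 0.28, 0.06 and 0.27 for B4 and 0.25, 0.18 and 0.11 for MIR. Every pair of B2 was thus higher than every pair of these other families. Per read outside genes the ratios of B2 were smaller, at 0.05, 0.60 and 0.24, and its groups overlapped, while those of B1 were −0.28, −0.07 and −0.29. Per LINE read, B2 had 0.24, 0.52 and 0.43 and B1 −0.09, −0.15 and −0.09, while MIR had −0.02, −0.07 and −0.19. As a share of all repeat reads, all families were lower in each pair, B2 by −0.69, −0.62 and −0.68 and B1 by −1.02, −1.29 and −1.20 on the log2 scale.

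**Figure D4:**
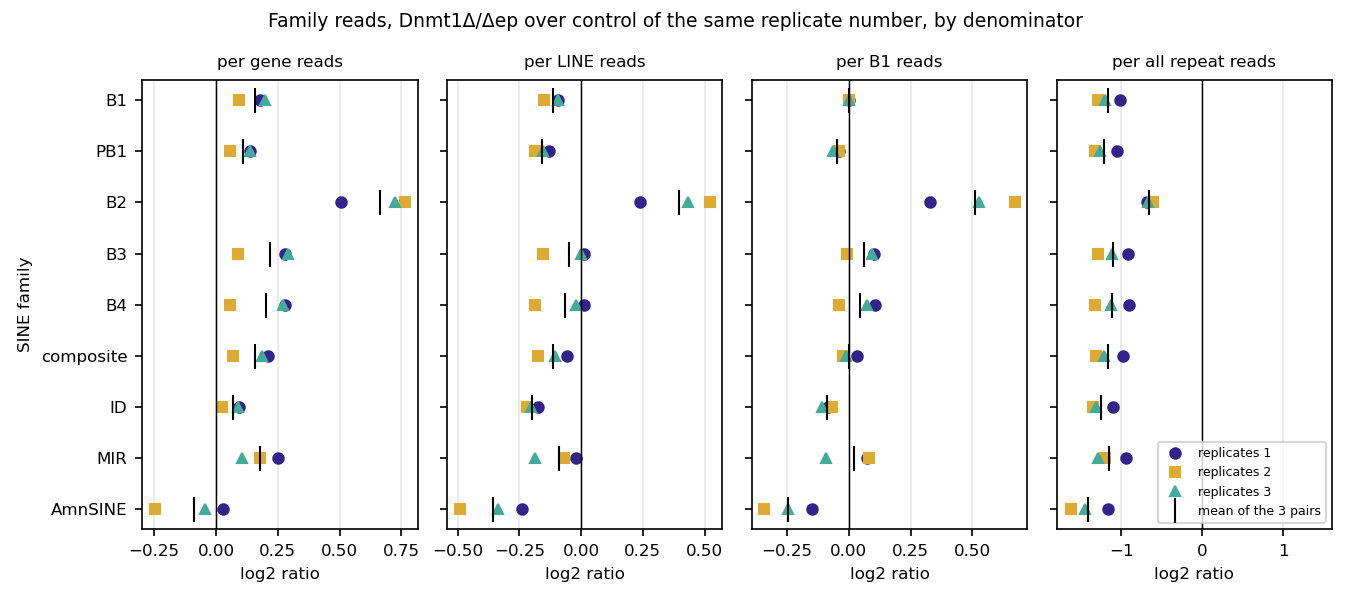
Log2 ratio of the reads of each SINE family in Dnmt1Δ/Δep over control libraries of the same replicate number, with gene reads, LINE reads, B1 reads or all repeat reads as the denominator (1 panel each, with its own axis), markers for the 3 replicate pairs and a bar for their mean. B2 lies to the right of the other families in each panel, for example at 0.50 to 0.76 per gene read.

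Grouped by age, as far as the names tell it, the 6 names of the youngest group (B1_Mm, B1_Mus1, B1_Mus2 and the B2 names) had a median log2 fold change of 0.35 with gene library sizes, against 0.16 for 13 other rodent names, 0.12 for 8 names of the oldest B1 and PB1 monomers and 0.12 for 6 mammalian names. These medians stand beside 0.33 for all repeat names. The youngest group was split by family: its B1 names lay between 0.19 and 0.21 and its B2 names between 0.50 and 0.77.

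Set among all repeat names, SINE names had small folds. With gene library sizes, log2 fold changes of all names ran from −0.93 to 5.64 and those of SINE names from −0.14 to 0.77. With repeat library sizes, 13 of 33 SINE names were lower in Dnmt1Δ/Δep libraries without overlap, against 13.4% of all names, and no SINE name was higher without overlap, against 18.3%. Those 13 were 4 B1, 2 PB1, 2 B3, 2 B4, 1 composite, 1 ID and 1 MIR names, and none of them was lower without overlap per gene read. Per LINE read, B2_Mm1a and B2_Mm1t were higher without overlap (20% of all names were) and B1_Mm, B1_Mus1, B1_Mur3 and ID2 lower (7.89% of all names were).

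**Figure D5:**
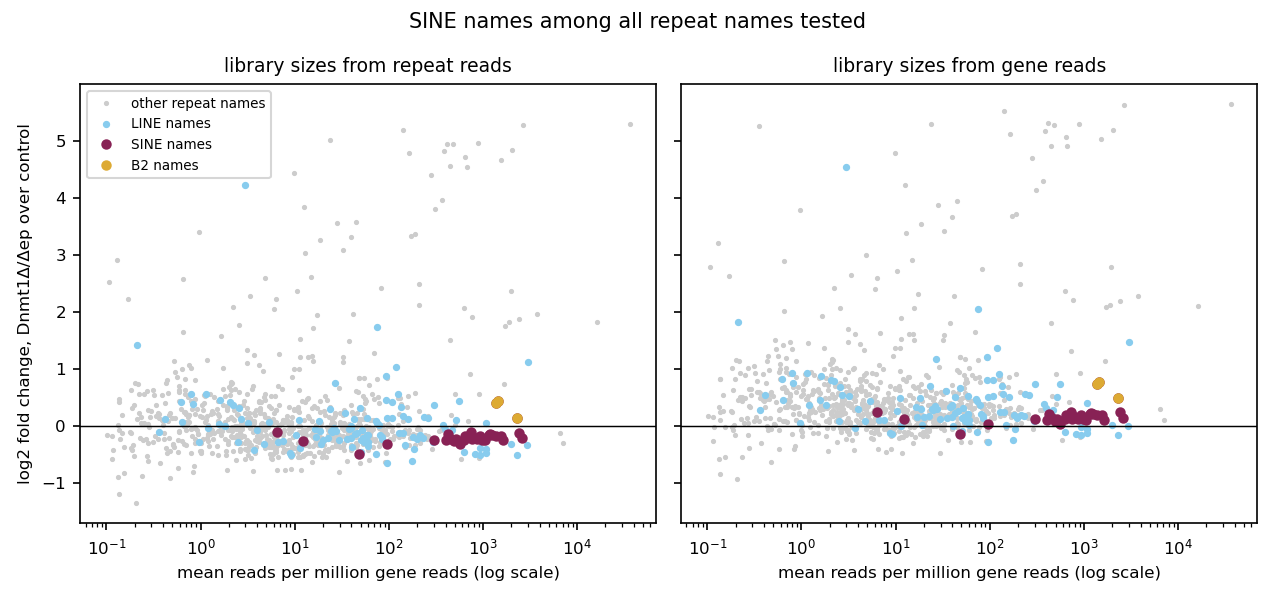
Log2 fold change of each repeat name tested under both library sizes against its mean RPM (log axis), with library sizes from repeats (left) and from genes (right). Most SINE names (purple) lie close together near 0 at high levels, with AmnSINE1 lower at −0.50 on the left and FAM and the AmnSINE names at low levels, and the B2 names (yellow) lie above them at 0.15 to 0.44 on the left and 0.50 to 0.77 on the right.

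Genes of the machinery that transcribes SINEs did not pass the test. RNA polymerase III copies SINEs, tRNA and other small RNA genes, and of 29 genes for its subunits and factors 28 were tested: 0 passed an adjusted p of 0.05 with edgeR or DESeq2, where 7.71% of the 16829 genes tested were up and 1.66% down, and 1 was up and 1 down at an unadjusted p of 0.05 with edgeR. Their median log2 fold change was −0.06, beside 0.00 for all genes, and the medians of the sensing and chromatin lists below were −0.02 and −0.16. Polr3g, a subunit found mostly in dividing and stem cells, had 94.5 ± 8.37 (SD, n = 3) CPM (counts scaled to 1000000 counts of genes) in control and 81.5 ± 2.20 in Dnmt1Δ/Δep libraries (log2 fold change −0.21 ± 0.10, edgeR adjusted p = 0.25). Maf1, a repressor of RNA polymerase III, had 43.3 ± 8.34 and 34.1 ± 1.84 CPM (log2 fold change −0.35 ± 0.15, adjusted p = 0.23). Leaving out control replicate 1 put 1 gene of the list up (Polr3b, adjusted p = 0.031) and 1 down (Maf1, adjusted p = 0.020) past the threshold.

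Of 16 genes whose proteins bind, edit, cut or sense SINE and other double-stranded RNA, 15 were tested and 1 was up with edgeR, where 7.71% of all genes were. DESeq2 put 3 of them up (Dhx58, Ifih1 and Tlr3), where 10.9% of all genes were up and 4.6% down. Dhx58, which encodes the RNA sensor LGP2, had 0.465, 0.595 and 0.447 CPM in control and 1.38, 1.33 and 2.36 in Dnmt1Δ/Δep libraries (log2 fold change 1.75 ± 0.32, edgeR adjusted p = 0.018), but its adjusted p was 0.059 when control replicate 2 was left out, 0.054 when control replicate 3 was and 0.051 when Dnmt1Δ/Δep replicate 3 was. Leaving out 1 library gave 0 to 3 of the list up: Tlr3 (adjusted p = 0.019) and Ddx58 (adjusted p = 0.032), the gene of the sensor RIG-I, passed beside Dhx58 when control replicate 1 was left out, and Ifih1 (adjusted p = 0.026) when control replicate 3 was. Ifih1, which encodes the double-stranded RNA sensor MDA5, had 3.73, 6.25 and 11.2 CPM in control and 13.3, 14.02 and 20.6 in Dnmt1Δ/Δep libraries. The log2 fold change of Ifih1 was 1.18 ± 0.39 (adjusted p = 0.11), and with the block 1.29 ± 0.21 (adjusted p = 0.019), as Tlr3, an endosomal sensor, also passed with the block (0.92 ± 0.15, adjusted p = 0.019). With the block, 10% of the genes tested were up and 3.58% down. Adar, the enzyme that edits adenosines in paired SINE RNA, had 78.2 ± 4.44 CPM in control and 76.3 ± 9.42 in Dnmt1Δ/Δep libraries (log2 fold change −0.04 ± 0.12, adjusted p = 0.91).

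Of 30 genes for proteins that write, read or remove DNA methylation or act in the chromatin of silenced SINEs, 1 was up and 3 were down at an adjusted p of 0.05 with edgeR, where 7.71% of all genes were up and 1.66% down. DESeq2 put 1 up and 5 down, where 10.9% and 4.6% of all genes were, and its 2 further genes were Chd4 and Ctcf. Dnmt1, the targeted gene, had 394, 379 and 324 CPM in control and 49.7, 54.3 and 50.7 in Dnmt1Δ/Δep libraries (log2 fold change −2.83 ± 0.11, edgeR adjusted p = 8.1e-05), which matched the labels in all 6 libraries. Suv39h2, a histone methyltransferase for H3K9, was up (1.38 ± 0.18, adjusted p = 0.0046), and its relative Suv39h1 (−0.46 ± 0.11, adjusted p = 0.045, with the block 0.054) and the methylcytosine dioxygenase Tet3 (−0.39 ± 0.09, adjusted p = 0.039) were down. With 1 library left out, the adjusted p of Suv39h1 ran from 0.049 to 0.16 and was past the threshold only without control replicate 3, and that of Tet3 ran from 0.023 to 0.17 and was past it only without control replicate 1. Those of Dnmt1 and Suv39h2 were at most 0.0012 and 0.030. Of the other small RNA genes looked at, Rn7sk, which encodes the 7SK RNA, was tested and had a log2 fold change of −0.25 ± 0.37 (adjusted p = 0.77).

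Markers of keratinocytes led in every library: the 12 markers summed to 30374 to 34104 CPM in control and 22893 to 23369 in Dnmt1Δ/Δep libraries, all were detected, and the sum was lower in each Dnmt1Δ/Δep library than in each control library. Krt5 and Krt14, which made up most of the sum, and Krt15 and Col17a1 were the 4 of 12 down at an adjusted p of 0.05 (edgeR), and 0 were up, where 7.71% of all genes were up and 1.66% down. Among the other 8, the log2 fold change was 1.70 for Lor (edgeR adjusted p = 0.054) and 1.61 for Ivl (adjusted p = 0.061), genes of the cornified envelope. The keratins Krt1 and Krt10 went the other way, at −2.30 (adjusted p = 0.085) and −1.58 (adjusted p = 0.069). The basal integrins Itgb4 and Itga6 had 0.17 and 0.18 (adjusted p = 0.59 and 0.81). Trp63 had −0.26 (adjusted p = 0.38) and Dsg3 0.02 (adjusted p = 0.92). The 8 macrophage and dendritic cell markers summed to 49.2 to 63.2 and 102 to 119 CPM (3 up), the 5 neutrophil markers to 49.3 to 126 and 192 to 253 (2 up), the 7 melanocyte markers to 224 to 573 and 688 to 912 (0 up or down) and the 4 endothelial markers to 5.29 to 17.1 and 14.5 to 21.7 (2 up). The 7 fibroblast markers (14.5 to 31.6 and 14.7 to 63.5), the 4 mast cell markers (3.44 to 8.41 and 10.9 to 14.98, with Cpa3 and Mcpt4 at 0) and the 4 T cell markers (at most 0.0925, with Cd3g at 0) had 0 up or down. Single genes carried some of these sums. Cd68, a lysosomal protein of macrophages, made up 48.9 to 62.2 and 98.7 to 115 CPM of the macrophage and dendritic cell sum, and the other 7 markers together 0.275 to 0.987 and 2.50 to 4.40, with Adgre1, Cd207, Ptprc and Lyz2 near 0 and the 3 up were Cd68 (log2 fold change 0.97, adjusted p = 0.0041), Csf1r (2.67, adjusted p = 0.027) and Itgam (2.35, adjusted p = 0.047). S100a8 and S100a9, which keratinocytes can also make, were all but at most 0.0372 CPM of the neutrophil sum, with Mpo, Elane and Ly6g near 0. Kit was all but at most 0.0106 CPM of the mast cell sum, and the T cell sum was a few reads per library. The sums of the macrophage and dendritic cell, neutrophil, melanocyte and mast cell markers were higher in each Dnmt1Δ/Δep library than in each control library, and the part of these genes in the SINE folds was not tested. In RNA of a whole culture, fewer cells of a type and less RNA per cell cannot be told apart.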

How the data were processed

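RNA of 6 libraries (3 per group) was analysed from 2 tables of raw counts that the authors deposited. For genes, the authors trimmed reads, removed ribosomal reads, aligned with STAR and counted unique reads with HTSeq (GRCm38 per the labels). For repeats, the authors used bowtie on MGSCv37 and gave unique and multiple reads to names by RepEnrich, so related names can share reads. The 2 tables of the authors' own comparisons were not used. The 5 entries naming no gene held 8.73% to 12.9% of counted reads and stayed out of library sizes.

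Counts were tested with edgeR 4.0.16 (quasi-likelihood test, TMM, filterByExpr with minimum counts of 10 and 15, Benjamini-Hochberg over all names or genes tested), in R 4.3.3 with limma 3.58.1 and data.table (1.17.8), and with DESeq2 1.42.0 as an alternative. Gene library sizes were gene totals times TMM factors of genes. Factors were 1.33 to 1.48 in control and 0.610 to 0.796 in Dnmt1Δ/Δep libraries on repeats, and 0.980 to 1.02 on genes. A standard error is the fold change (log2) divided by the root of the F statistic. Scripts were tested on simulated data. Python 3.11.15, pandas 2.3.3 and matplotlib 3.10.9 made tables and figures. Of the gene identifiers, 97.3% matched a symbol.

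Statistics are given for the name of each family with the most reads and that with the largest fold, and for members past the threshold. ID2, B2_Mm1t, RSINE1, MIR3 and BC1_Mm were added after their values were seen. The members and gene lists were chosen with earlier results of these data known. The replicate numbers pair the libraries: the headers give each number its own lane, and deviations of same-numbered libraries correlated by 0.46, 0.40 and 0.31 across genes and 0.68, 0.56 and 0.51 across repeats. Libraries came from separate mice per the study. With 3 against 3 libraries taken as unpaired, an exact two-sided permutation test cannot go below 0.1. An exact test that keeps the 3 replicate pairs has fewer arrangements, so its floor is higher.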

Additional observations from a re-analysis of the deposited data

How the results depend on the processing

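The 3 B2 names kept a positive log2 fold change with repeat (TMM), gene, LINE and B1 library sizes, 2 of them (B2_Mm1a and B2_Mm1t) kept it with upper-quartile factors, and none did with repeat totals (values below). With the replicate block, SINE names past the adjusted p went from 0 up and 0 down to 0 up and 2 down with repeat library sizes, and to 3 up with gene library sizes. With any replicate pair left out it was again 3 up. With B1 reads as library size it was 1 up, with the block 3 up and 1 down, and with LINE reads and the block 2 up and 2 down. At an unadjusted p of 0.05, the block moved the counts from 0 up and 1 down to 2 up and 9 down with repeat library sizes, and from 2 up to 5 up with gene library sizes. Upper-quartile factors gave 25 down, and repeat totals without a TMM factor 33 down, of which 30 were called. Leaving out 1 library gave 0 in each direction with repeat library sizes, and with gene library sizes 0 to 3 up and 0 to 2 called up, all from leaving out control replicate 1.

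The median of all SINE names was 0.15 with gene library sizes, −0.46 with upper-quartile factors, −1.19 with repeat totals, −0.0155 with B1 reads, −0.0148 with B1 reads and the block and −0.13 with LINE reads and the block. The mean log2 ratio over the pairs of all SINE reads was −0.028 per LINE read, and the unpaired difference of the groups' mean log2 values, without each library in turn, ran from 0.10 to 0.37 per gene read and from −1.13 to −1.04 as a share of repeat reads.

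Directions turned with gene library sizes for B1_Mus1 (0.19), B1F2 (0.11), PB1D10 (0.11), B3 (0.24), B3A (0.21), B4A (0.23), B4 (0.19), ID_B1 (0.15), ID4 (0.043), MIRb (0.25), MIRc (0.091) and ID2 (0.043). With B1 reads as library size they turned for B1_Mus1 (0.0242), B3 (0.0739), B3A (0.0455), B4A (0.0608), B4 (0.0274) and MIRb (0.0917), and with the block added the values were 0.0241, 0.0725, 0.0434, 0.0592, 0.0268 and 0.0916. With repeat totals B2_Mm2 (−0.81), B2_Mm1a (−0.52) and B2_Mm1t (−0.55) turned, and with upper-quartile factors B2_Mm2 (−0.10). These turns follow from the denominators, whose ratio differs between the groups. B1, LINE and left-out-pair settings were chosen after the data were seen. The median standard error of SINE names was 0.22 with gene and 0.13 with repeat library sizes, and 0.094 and 0.11 with the block, which limits what 3 libraries a group can show.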
